A study of Homo sapiens with 24 samples.

Results

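The ABC drug and bile transporters examined here were 9 genes, chosen by symbol (ABCB1, ABCB4, ABCC1, ABCC2, ABCC3, ABCC4, ABCC5, ABCC6 and ABCG2), of 14585 genes in the table, and all 9 were found in it. RNA was sequenced from A549, an established lung adenocarcinoma line, and from Huh7, an established hepatocellular carcinoma line. Cells of each line were a control or had received an extract of Pulsatilla chinensis (P. chinensis), Bupleurum chinense (B. chinense) or Polyporus umbellatus (P. umbellatus), which gave 8 groups of 3 libraries each and 24 libraries in all. The genotype of both lines was labelled wild type, no transgene or deletion was named, and each line is a single cultured line. That label does not cover mutations native to the lines: the paper describes A549 as p53 wild type and Huh7 as p53 mutant. The dose and the duration of treatment of the sequenced cells, and whether control cells received the solvent of the extracts, are not given in the sources used here. Nothing in the labels says that the 3 libraries of a group came from separate cultures, so the p-values measure the spread between these libraries, which may be technical.

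ABC transporters are membrane proteins that use the energy of ATP hydrolysis to move substrates across a membrane, and the members studied here mostly move drugs, conjugates, bile acids or lipids out of cells. ABCB1 (P-glycoprotein), ABCG2 (breast cancer resistance protein) and ABCC1 (MRP1) are known for exporting cytotoxic drugs from tumour cells. In hepatocytes ABCC2 (MRP2) exports bilirubin and drug conjugates into bile, and ABCB4 (MDR3) supplies phosphatidylcholine to it. ABCC3 (MRP3) and ABCC4 (MRP4) export conjugates and bile acids on the blood side, ABCC5 (MRP5) exports cyclic nucleotides and nucleotide analogues, and ABCC6 (MRP6) is a liver transporter required for ATP release that prevents ectopic calcification. The data are mRNA levels of whole cultures, in which fewer cells expressing a gene and less RNA per cell cannot be told apart, and transporter protein and transport were not measured.

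The library totals ran from 6803704 to 17175624 counts in A549 and from 7182444 to 24345541 in Huh7, where the control and P. chinensis libraries (13259204 to 24345541) were deeper than the B. chinense and P. umbellatus libraries (7182444 to 11546100). The median gene differed between replicates by 2.72 to 5.79 times the sampling variance, except between P. umbellatus replicate 2 and the other P. umbellatus libraries of Huh7, where it differed by 15.6 and 21.0 times. In Huh7 the change with P. umbellatus also depended on base composition: over the genes that averaged 20 counts or more, its median log2 change was 0.34 in the fifth of genes with the lowest GC content and fell by 0.62 in the fifth with the highest, whereas in the other 5 comparisons with control those medians lay between -0.06 and 0.07. The fitted changes of the members against control in Huh7 with P. umbellatus are therefore given below also with a smooth dependence on GC content and transcript length removed from every library, a correction that was chosen after seeing the data. Of the 10 hepatocyte markers, all 10 were above 3 counts in every Huh7 library, and ALB, AFP and APOA1 were at 3 counts or less in the control A549 libraries. In A549 only 3 of 9 alveolar type II markers were in the table, and all 6 markers of lung carcinoma epithelium were above 3 counts in every library. KRT7, one of those 6, was at 3 counts or less in every Huh7 library, while the other 5 were above 3 counts in every Huh7 library. The 6 summed to 7440 to 8021 CPM in the A549 controls and 4110 to 4351 CPM in the Huh7 controls, so as a set they do not mark A549 alone. The 4 fibroblast markers summed to at most 11.8 CPM in A549 and 38.1 CPM in Huh7, the 2 of 4 blood markers in the table to at most 42.2 CPM in A549 and 28.5 CPM in Huh7, and the 1 of 3 endothelial markers in the table reached 3.10 and 55.9 CPM.

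The promoters of 4 members that were called against control are printed. In A549 ABCC2 was called higher with B. chinense and P. umbellatus, and ABCC5 was called higher with every herb. In Huh7 ABCC2 and ABCC5 were called higher with P. umbellatus, and ABCC2 was called lower with P. chinensis. ABCB1 was called higher and ABCC6 lower in Huh7 with P. chinensis and P. umbellatus. Some of these calls were lost under the alternatives given below. Each sequence is from RefSeq (GRCh38.p14), reads 5′ to 3′ on the strand of its gene, and covers 250 bases before and 50 bases from the transcript start. The ABCC2 promoter is at chr10:99782390-99782689 on the plus strand, and those of ABCC5 (chr3:184017835-184018134), ABCB1 (chr7:87600835-87601134) and ABCC6 (chr16:16223445-16223744) are on the minus strand. Capitals mark matches on either strand to 4 motifs. These were the box CCAAT, the GC box with the letters GGGCGG, the core of the element bound by the aryl hydrocarbon receptor, spelled TNGCGTG, and the antioxidant response element, spelled TGACNNNGC. Promoters of 6 members were in the table used, and none was for ABCB4, ABCC1 or ABCC3.
ABCC2: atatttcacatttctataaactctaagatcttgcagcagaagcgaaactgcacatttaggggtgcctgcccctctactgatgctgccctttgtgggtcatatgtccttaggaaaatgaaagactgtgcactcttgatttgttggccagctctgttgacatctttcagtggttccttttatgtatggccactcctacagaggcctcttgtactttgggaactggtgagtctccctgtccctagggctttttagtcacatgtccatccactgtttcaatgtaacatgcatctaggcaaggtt
ABCC5: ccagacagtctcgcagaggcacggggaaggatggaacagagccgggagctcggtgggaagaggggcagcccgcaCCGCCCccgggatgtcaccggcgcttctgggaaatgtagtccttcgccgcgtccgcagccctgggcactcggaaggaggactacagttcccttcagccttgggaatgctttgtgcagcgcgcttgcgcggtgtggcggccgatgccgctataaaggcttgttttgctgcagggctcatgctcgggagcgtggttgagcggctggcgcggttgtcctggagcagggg
ABCB1: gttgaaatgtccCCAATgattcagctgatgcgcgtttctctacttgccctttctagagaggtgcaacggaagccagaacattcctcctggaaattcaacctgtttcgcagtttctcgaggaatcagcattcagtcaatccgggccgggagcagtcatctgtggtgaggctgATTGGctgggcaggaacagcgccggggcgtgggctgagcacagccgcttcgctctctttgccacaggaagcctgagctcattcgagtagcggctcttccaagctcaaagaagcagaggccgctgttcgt
ABCC6: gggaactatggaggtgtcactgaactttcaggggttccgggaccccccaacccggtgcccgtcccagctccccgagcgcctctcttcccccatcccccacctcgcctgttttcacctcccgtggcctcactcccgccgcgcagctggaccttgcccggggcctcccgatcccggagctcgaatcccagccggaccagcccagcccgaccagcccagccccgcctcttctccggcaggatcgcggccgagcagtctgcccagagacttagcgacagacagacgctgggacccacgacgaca
ABCB1 held 2 CCAAT matches, starting 238 bases before the start on the plus strand and 79 bases before it on the minus strand, and 34.6% of 35116 RefSeq promoters of this length held at least 1. ABCC5 held 1 GC box match, 176 bases before the start on the minus strand, a motif in 45.0% of promoters. The aryl hydrocarbon receptor core (5.51% of promoters) was matched in none of the 6 member promoters, and the antioxidant response element (13.3%) in ABCC4 alone, 149 bases before the start on the minus strand. TATAAA (11.5%), which is not capitalised, was matched in ABCC2 at -236 and in ABCC5 at -28. A match is a description of letters and not of a bound site.

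In GRCh38 coordinates, ABCB1 (ENSG00000085563) spans chr7:87503017-87713323, ABCB4 (ENSG00000005471) spans chr7:87401696-87480435 and ABCC1 (ENSG00000103222) spans chr16:15949138-16143257. ABCC2 (ENSG00000023839) spans chr10:99782640-99852594, ABCC3 (ENSG00000108846) spans chr17:50634777-50692253 and ABCC4 (ENSG00000125257) spans chr13:95019835-95301475. ABCC5 (ENSG00000114770) spans chr3:183919934-184017939, ABCC6 (ENSG00000091262) spans chr16:16149565-16223522 and ABCG2 (ENSG00000118777) spans chr4:88090150-88231628. ABCC1, ABCC2 and ABCC3 lie on the plus strand and the other members on the minus strand.

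Each member differed more between the control cells of the lines than from control with any herb. ABCC2 was the most abundant member in both. ABCB1, ABCB4 and ABCC6 were expressed in Huh7 and nearly absent from A549, while ABCC1 and ABCC3 were much lower in Huh7 than in A549. Levels are counts relative to the size of the library (CPM) after TMM scaling over the 24 libraries, with the 3 control libraries in replicate order. All 9 members passed the test between the control groups (edgeR quasi-likelihood test, adjusted p below 0.05), 5 higher in A549 and 4 higher in Huh7, against a background of 33.9% of 14584 genes called higher in A549 and 36.8% called higher in Huh7.

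ABCB1 was at 3.49, 0.785 and 1.06 CPM in A549 and at 159.9, 149.9 and 159 CPM in Huh7, so the lines did not overlap, and it was lower in A549 by a log2 difference of -6.55 ± 0.21 (SE, n = 3 per line, adjusted p 1.7e-17). Its chromosome 7 neighbour ABCB4, which lies 22581 bases away on the same strand, was at 0, 0.294 and 0.289 CPM in A549 and at 45.6, 48.7 and 48.1 CPM in Huh7. The A549 controls held 6 ABCB4 counts in all and the Huh7 controls 2833, a 226-fold difference after scaling with an exact 95% interval of 104 to 617 for counting error only. ABCC6 was likewise near the floor in A549 (0.996, 0.785 and 1.06 CPM) and at 48.4, 51.9 and 58.1 CPM in Huh7, a log2 difference of -5.79 ± 0.26 (adjusted p 8.8e-15). ABCC6 has the near-identical copies ABCC6P1 and ABCC6P2 on the same chromosome, which are not in the table, so reads of the copies could have been assigned to it and its values are uncertain.

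ABCC1, the neighbour of ABCC6 on chromosome 16 at 6307 bases, showed the opposite pattern. It was at 200.2, 197 and 164 CPM in A549 and at 5.86, 4.6 and 9.14 CPM in Huh7, a log2 difference of 4.80 ± 0.21 (adjusted p 5.4e-15). ABCC3 followed it, with 136, 155 and 149.6 CPM in A549 and 12.3, 12.9 and 13.3 CPM in Huh7, a log2 difference of 3.52 ± 0.20 (adjusted p 3.6e-13). The libraries of the lines were far apart for both exporters.

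ABCC4 was at 173, 193 and 150.1 CPM in A549 and at 40.5, 43.3 and 50.4 CPM in Huh7, a log2 difference of 1.94 ± 0.11. ABCG2 was at 113, 110.2 and 104 CPM in A549 and at 52.9, 53.4 and 49.1 CPM in Huh7, a log2 difference of 1.08 ± 0.07. The smallest differences were those of ABCC2 and ABCC5, the members expressed well in both lines. ABCC2 was at 894, 806 and 849.9 CPM in A549 and at 501, 477 and 488 CPM in Huh7 (0.80 ± 0.06), and ABCC5 was at 47.3, 35.2 and 49.4 CPM in A549 and at 75.8, 72.3 and 68.6 CPM in Huh7 (-0.72 ± 0.11). The libraries of the 2 lines did not overlap for any of the 9 members. How often this held over all genes was not counted, and 33.9% of genes were called higher in A549 and 36.8% in Huh7. The adjusted p was 3e-13 for ABCC4, 2.7e-12 for ABCG2, 1e-10 for ABCC2 and 4.8e-06 for ABCC5.

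**Figure D1:**
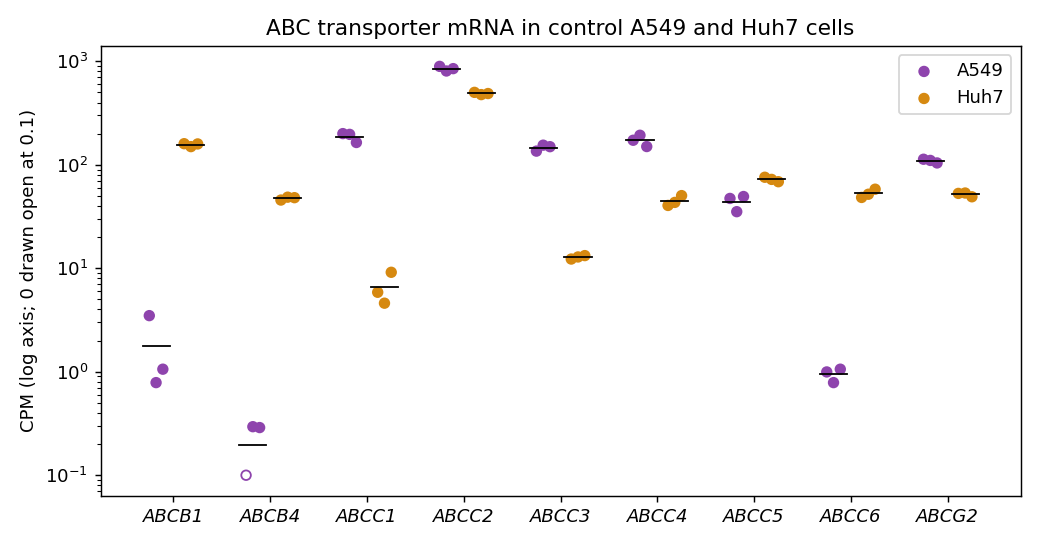
CPM on a log axis of the 9 members in the 3 control libraries of each line, one point per library and a line at the mean, with a value of 0 drawn open at 0.1. ABCB1, ABCB4 and ABCC6 lie near or below 3.49 CPM in A549, ABCC1 lies below 10 CPM in Huh7 and ABCC2 is highest in both lines.

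Between genes, levels were compared per kilobase of the median protein-coding transcript. In A549 the order of mean CPM per kilobase was ABCC2 (245 ± 13, SD), ABCC3 (106 ± 7.2), ABCC4 (59.2 ± 7.4), ABCC1 (29.0 ± 3.1), ABCG2 (26.0 ± 1.1), ABCC5 (22.9 ± 4.0), ABCC6 (0.624 ± 0.094), ABCB1 (0.384 ± 0.322) and ABCB4 (0.051 ± 0.044). The neighbours ABCC1 and ABCG2, ABCG2 and ABCC5, and ABCC6 and ABCB1 overlapped over the 3 libraries, and the other neighbours did not. In Huh7 the order was ABCC2 (141 ± 3.5), ABCC5 (37.6 ± 1.9), ABCC6 (34.8 ± 3.2), ABCB1 (33.8 ± 1.2), ABCC4 (15.4 ± 1.8), ABCB4 (12.4 ± 0.42), ABCG2 (12.3 ± 0.56), ABCC3 (9.21 ± 0.35) and ABCC1 (1.01 ± 0.36). There ABCC5 and ABCC6, ABCC6 and ABCB1, and ABCB4 and ABCG2 overlapped. The middle of each order depends on the length used: per kilobase of the longest transcript ABCC3 moved from place 2 to place 4 in A549 and ABCC6 from place 3 to place 6 in Huh7, while ABCC2 stayed first in both lines, ABCB4 last in A549 and ABCC1 last in Huh7.

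The summed level of the 9 members had a mean above control in A549 and below it in Huh7 with P. chinensis and B. chinense. The sum was 1512 ± 50 CPM (SD, n = 3) in control A549 and, in treated cells, 1674 ± 113 (P. chinensis), 1859 ± 91 (B. chinense) and 1914 ± 88 (P. umbellatus). In Huh7 it was 933 ± 17 CPM in the controls and 777 ± 23, 835 ± 27 and 1084 ± 74 with the same herbs. ABCC2 made up 56.2% of the sum in control A549 and 52.4% in control Huh7, so the sum mainly follows ABCC2, and it was not tested. In A549 the lowest P. chinensis library (1544 CPM) lay below the highest control (1567 CPM).

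In A549 ABCC2, ABCC3 and ABCC5 were the members that passed the test, all higher with a herb. ABCC5 rose with all 3 herbs, and ABCC2 and ABCC3 rose with B. chinense and P. umbellatus, by 1.21-fold to 1.5-fold. With P. chinensis 1 of 8 members tested rose and 0 fell, where 15.8% of all genes tested were called up and 17.1% down. With B. chinense 3 rose and 0 fell (13.1% of genes up, 15% down), and with P. umbellatus 3 rose and 0 fell (13.4% up, 14.8% down). The median log2 change of the members tested was 0.00, 0.14 and 0.11 with the 3 herbs, beside 0.01, -0.0019 and -0.01 over all genes. In the same line the summed level of the hepatocyte markers was 142 to 155 CPM in the controls and 71.0 to 92.0 CPM with the herbs. That sum does not show how single markers moved. Of the 10, 3 were above 3 counts in every control library and 6 in every P. chinensis library. The number was 4 for B. chinense and 3 for P. umbellatus. HNF4A alone, described below, was at 109.8 to 123 CPM in the controls and at 44.8 to 58.3 CPM in treated cells. The alveolar type II markers summed to 62.1 to 68.2 CPM in the controls and 105 to 144 CPM with the herbs. The part of these markers in the results was not tested.

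ABCC2, the apical conjugate pump, was at 894, 806 and 849.9 CPM in the A549 controls. It was at 961, 990.4 and 895 CPM with P. chinensis, at 1113, 1029.9 and 1025 with B. chinense and at 1079, 1137 and 1081 with P. umbellatus, so every treated library lay above every control library. The rise was 0.27 ± 0.05 on the log2 scale with B. chinense (adjusted p 0.00088) and 0.31 ± 0.05 with P. umbellatus (adjusted p 0.00032). With P. chinensis the log2 difference was 0.13 ± 0.05 (adjusted p 0.067), which did not pass, with adjusted p from 0.0069 to 0.102 over the alternative settings.

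ABCC3, the basolateral conjugate pump, was at 136, 155 and 149.6 CPM in the controls and at 252, 167 and 233 CPM with B. chinense. Its level was 228, 249 and 213 CPM with P. umbellatus and 201, 198 and 154 CPM with P. chinensis, and only the P. chinensis libraries overlapped the controls. The rise was 0.53 ± 0.13 with B. chinense (adjusted p 0.0066) and 0.59 ± 0.13 with P. umbellatus (adjusted p 0.003), and the P. chinensis value was 0.29 ± 0.13 (adjusted p 0.096). The calls of ABCC2 and ABCC3 with B. chinense and P. umbellatus held under every alternative setting and without any single library of the line.

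ABCC5, the exporter of cyclic nucleotides, was at 47.3, 35.2 and 49.4 CPM in the controls. It was at 65.9, 69.8 and 54.8 CPM with P. chinensis, at 57.1, 57.1 and 59.7 CPM with B. chinense and at 60.9, 70.0 and 53.9 CPM with P. umbellatus, all above the controls, of which replicate 2 was lowest. The rise was 0.50 ± 0.13 with P. chinensis (adjusted p 0.0073), 0.43 ± 0.13 with P. umbellatus (adjusted p 0.02) and 0.36 ± 0.13 with B. chinense (adjusted p 0.0498). Without control replicate 2 these values were 0.36 (adjusted p 0.034), 0.29 (adjusted p 0.089) and 0.22 (adjusted p 0.20), so that library decided the calls with P. umbellatus and B. chinense. The P. umbellatus call was also lost without P. umbellatus replicate 2 (0.33, adjusted p 0.095), and the B. chinense call without P. chinensis replicate 1, P. umbellatus replicate 1 or any of the 3 B. chinense libraries (0.33 to 0.38, adjusted p 0.057 to 0.119). With the replicate number as a block the adjusted p with B. chinense was 0.076, and it ran from 0.025 to 0.076 over the alternatives.

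**Figure D2:**
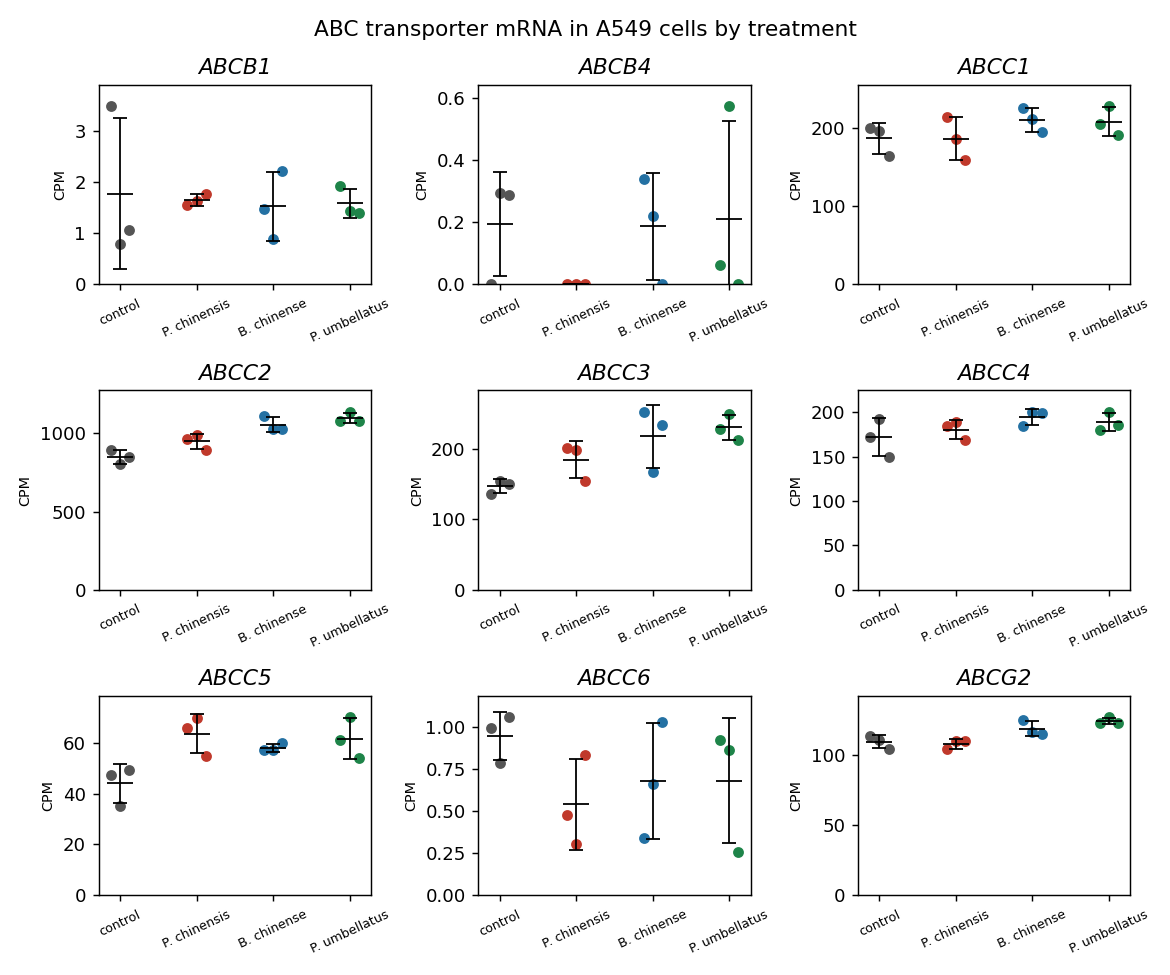
CPM of the 9 members in the 12 A549 libraries on linear axes that start at 0, one point per library, with bars for the mean and SD of 3 libraries. ABCC2 and ABCC5 lie above the controls in all 9 treated libraries, while ABCB1, ABCB4 and ABCC6 stay at or below 3.49 CPM.

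The drug pumps ABCG2, ABCC1 and ABCC4 passed no test against control in A549. ABCG2 was at 113, 110.2 and 104 CPM in the controls and between 104 and 127 CPM over the 9 treated libraries, with log2 differences of -0.05 for P. chinensis, 0.08 for B. chinense and 0.12 for P. umbellatus and 95% intervals within -0.16 and 0.24. The B. chinense and P. umbellatus libraries all lay above the controls, without passing (adjusted p 0.29 and 0.10). With the correction for GC content and length the B. chinense (0.13, adjusted p 0.049) and P. umbellatus (0.15, adjusted p 0.021) values of ABCG2 passed, and over the alternatives their adjusted p ran from 0.049 to 0.34 and from 0.021 to 0.144. ABCC1 differed from control by -0.03 to 0.14 and ABCC4 by 0.04 to 0.14, and both overlapped the controls with every herb.

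At the other end, ABCB1 held 8 to 31 counts in each A549 library and ABCC6 2 to 15, a depth at which only large changes could be detected. The log2 differences of ABCB1 had 95% intervals within -1.39 and 1.01, and their sign followed control replicate 1, which at 3.49 CPM was the highest of the 12 libraries. Without that library the values were 0.81, 0.66 and 0.73 in place of -0.10, -0.25 and -0.17, and none passed. ABCB4 held 0 to 6 counts in each library, under the limit for testing.

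In Huh7, P. chinensis lowered the liver transporters ABCC2, ABCB4 and ABCC6. ABCB4 decreased by 43.4%, ABCC6 decreased by 45.8% and ABCC2 decreased by 22.8%. ABCC1, already low, decreased by 50.9%, and ABCB1 was the one member that rose. Of 9 members tested 1 rose and 4 fell, where 10.5% of all genes were called up and 10.5% down, and the median log2 change of the members was -0.28, beside 0.01 over all genes. Without P. umbellatus replicate 2, which stood apart, the fit of the line called 2309 genes up and 2536 down in this comparison in place of 1450 and 1451, and 7 members in place of 5, ABCC4 (adjusted p 0.020) and ABCG2 (adjusted p 0.019) being the additions.

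ABCB4, the phosphatidylcholine floppase, was at 45.6, 48.7 and 48.1 CPM in the controls and at 30.2, 22.3 and 24.9 CPM with P. chinensis, with no overlap. It fell by 0.82 ± 0.14 on the log2 scale (adjusted p 0.0013). With B. chinense it was at 41.8, 35.4 and 34.3 CPM (-0.34 ± 0.14, adjusted p 0.34) and with P. umbellatus at 35.3, 41.7 and 29.7 CPM (-0.37 ± 0.14, adjusted p 0.06), so that all 9 treated libraries lay below the controls but only P. chinensis passed. With the GC and length correction the P. umbellatus value was -0.67 (adjusted p 0.0015) and passed, and without P. umbellatus replicate 2 it was -0.50 (adjusted p 0.015). The B. chinense value passed when only the 6 libraries compared were fitted (adjusted p 0.037), and its adjusted p ran from 0.037 to 0.37 over the alternatives.

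ABCC2 was at 501, 477 and 488 CPM in the Huh7 controls and at 368, 377 and 342 CPM with P. chinensis, a fall of 0.37 ± 0.07 on the log2 scale (adjusted p 0.0028). With B. chinense it was at 419.6, 388 and 409 CPM, also below every control, with a log2 difference of -0.25 ± 0.07 (adjusted p 0.13). That value passed under DESeq2, voom, the fit of the 6 libraries alone and the GC and length correction, with adjusted p from 0.0037 to 0.166 over the alternatives. With P. umbellatus ABCC2 was higher in all 3 libraries, at 605, 615 and 532 CPM.

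ABCC6 was at 48.4, 51.9 and 58.1 CPM in the controls and at 34.1, 23.9 and 24.2 CPM with P. chinensis, a fall of 0.88 ± 0.15 (adjusted p 0.0014). It was at 26.4, 23.2 and 31.4 CPM with P. umbellatus, a fall of 0.91 ± 0.16 (adjusted p 0.0019), and at 56.8, 46.7 and 46.5 CPM with B. chinense, which overlapped the controls (-0.06 ± 0.15). With the GC and length correction the fall with P. umbellatus was -0.60 (adjusted p 0.011) and that with P. chinensis -0.87 (adjusted p 0.00034). The falls of ABCB4, ABCC2 and ABCC6 with P. chinensis held under every alternative setting and without any single library of the line.

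ABCC1, the broad conjugate and drug exporter, was at 5.86, 4.6 and 9.14 CPM in the controls and at 2.6, 3.98 and 2.65 CPM with P. chinensis. It fell by 1.03 ± 0.32 (adjusted p 0.04). The call was lost with upper quartile scaling (adjusted p 0.051), with the replicate block (adjusted p 0.076) and without any 1 of 6 libraries. Without control replicate 3, the highest control, the value was -0.70 (adjusted p 0.20), and without control replicate 1, P. chinensis replicate 1 or 3 or B. chinense replicate 2 or 3 it lay between -1.10 and -0.93 (adjusted p 0.052 to 0.137). ABCC1 was at 4.88, 6.56 and 6.53 CPM with B. chinense and at 12.1, 5.14 and 8.78 CPM with P. umbellatus, both overlapping the controls.

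ABCB1, the P-glycoprotein gene, was at 159.9, 149.9 and 159 CPM in the controls and at 176, 179 and 181 CPM with P. chinensis, a rise of 0.25 ± 0.07 (adjusted p 0.03). It was at 216, 224 and 192 CPM with P. umbellatus and at 169, 173 and 159 CPM with B. chinense, where it overlapped the controls (0.11 ± 0.07, adjusted p 0.61). The P. chinensis libraries all lay above the controls. That call was lost when any 1 of the 3 control or 3 P. chinensis libraries was left out (adjusted p 0.067 to 0.126, log2 values 0.20 to 0.27), and it held under all 9 alternative settings (adjusted p 0.00045 to 0.042). RUNDC3B, which overlaps ABCB1 on the opposite strand with 0 shared exon bases, held at most 57 counts in any Huh7 library of these groups and passed no test.

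The ratio of the neighbours ABCB1 and ABCB4 was higher than in the controls with every herb. ABCB1 counts were 3.08 to 3.50 times ABCB4 counts in the 3 controls, 5.83 to 8.01 times with P. chinensis, 4.04 to 4.89 times with B. chinense and 5.38 to 6.47 times with P. umbellatus. No treated library overlapped the controls, and each herb gave p = 0.1 in the exact two-sided permutation test, the smallest that 3 against 3 allows. The transcripts are alike in GC content (42.4% and 45.0%), and the ratio within a library needs no scaling between libraries. In the other neighbouring pair the ratio of ABCC6 to ABCC1 counts was 6.35 to 11.3 in the controls and 2.18 to 4.51 with P. umbellatus (exact permutation p = 0.1), and it overlapped the controls with P. chinensis and B. chinense.

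**Figure D3:**
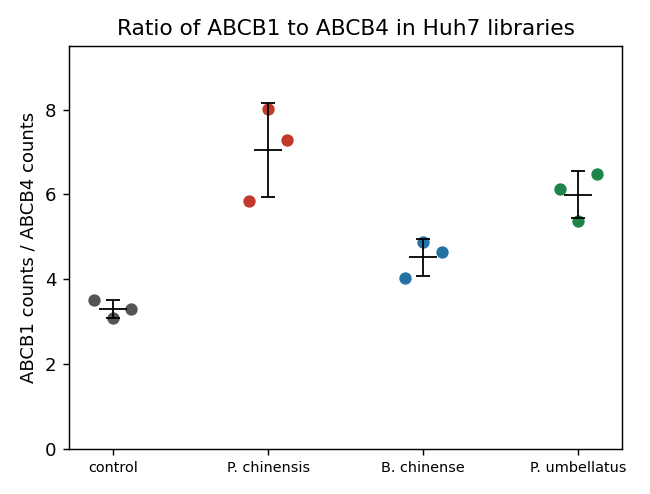
Ratio of ABCB1 counts to ABCB4 counts in each of the 12 Huh7 libraries, with bars for the mean and SD of 3 libraries per group. The controls lie between 3.08 and 3.50 and every treated library lies above them, highest with P. chinensis at 5.83 to 8.01.

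With B. chinense none of the 9 members passed in Huh7, where 0.519% of all genes were called up and 0.757% down. These shares depended on a library of another group: without P. umbellatus replicate 2, 364 genes of 13875 were called up and 547 down in place of 72 and 105, and ABCC2 passed (adjusted p 0.022). At an unadjusted p below 0.05 2 members differed by edgeR, and DESeq2 called 1 of 9. The median log2 change of the members was -0.11, beside -8.9e-05 over all genes. The largest differences, those of ABCB4, ABCC3 (-0.33 ± 0.28) and ABCC2, were all negative, and the 95% interval of ABCC5 was -0.17 to 0.15.

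With P. umbellatus 4 members rose in Huh7 and 1 fell, where 19.3% of all genes were called up and 17.8% down. None of the 4 rises passed with the GC and length correction. The correction removes any smooth dependence on GC content and length. A response to the herb that follows them therefore cannot be told apart from a technical effect. ABCG2, the half-transporter that exports drugs and urate, was at 65.7, 78.1 and 66 CPM against 52.9, 53.4 and 49.1 CPM in the controls, a rise of 0.49 ± 0.08 (adjusted p 0.002) that became 0.06 (adjusted p 0.55). ABCB1 rose by 0.49 ± 0.07 (adjusted p 0.0011), which became 0.12 (adjusted p 0.17). ABCC2 rose by 0.31 ± 0.07 (adjusted p 0.0064), which became -0.03 (adjusted p 0.78). ABCC5 was at 87.5, 90.6 and 86.1 CPM against 75.8, 72.3 and 68.6 CPM, a rise of 0.34 ± 0.07 (adjusted p 0.0048) that became 0.15 (adjusted p 0.12). These 4 genes lie below the middle of all genes in GC content: 8.33% of genes are lower than ABCG2 (39.2% GC), 22.0% lower than ABCB1, 24.6% lower than ABCC2 and 44.8% lower than ABCC5. ABCC6, which fell, lies above it (57.5% GC, 76.6% of genes lower). ABCB4, with a negative value, lies below it too (34% of genes lower), and ABCC1, with a positive value, lies above it (68.5%). The median log2 change over the 9 members was 0.31, beside 0.03 over all genes, and with the correction the members called were 2, ABCB4 and ABCC6, both lower, where 942 of 13875 genes were called up and 1777 down with it.

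ABCC4, ABCC3, ABCC5 and ABCG2 did not pass with P. chinensis in Huh7, and ABCC1, ABCC3 and ABCC4 none with P. umbellatus. ABCC4 was at 40.5, 43.3 and 50.4 CPM in the controls and at 33, 37.6 and 35.4 CPM with P. chinensis, lower in all 3 (-0.28 ± 0.12, adjusted p 0.14), and its adjusted p ran from 0.0057 to 0.218 over the alternatives. With P. umbellatus it was at 46.1, 61.8 and 44.9 CPM (0.24 ± 0.13, and -0.06 with the correction). ABCG2 was at 56.8, 59 and 54 CPM with P. chinensis (0.19 ± 0.08, adjusted p 0.14, with a range of 0.0051 to 0.157 over the alternatives) and at 47.9, 46.4 and 49.1 CPM with B. chinense. ABCC5 was at 78.6, 75.6 and 76.2 CPM with P. chinensis (0.15 ± 0.07, adjusted p 0.18), and its adjusted p ran from 0.019 to 0.22. Both passed with voom and with the 6 libraries alone. ABCC3 ran from 9.18 to 11.1 CPM with P. chinensis against 12.3 to 13.3 CPM in the controls (-0.26 ± 0.27), so it lay below every control. Its P. umbellatus libraries, at 11.8, 3.89 and 9.74 CPM, gave -0.52 ± 0.29 (-0.22 with the correction), and without P. umbellatus replicate 1 that value was -0.83 (adjusted p 0.048). ABCC1 gave 0.46 ± 0.32 with P. umbellatus (0.56 with the correction).

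**Figure D4:**
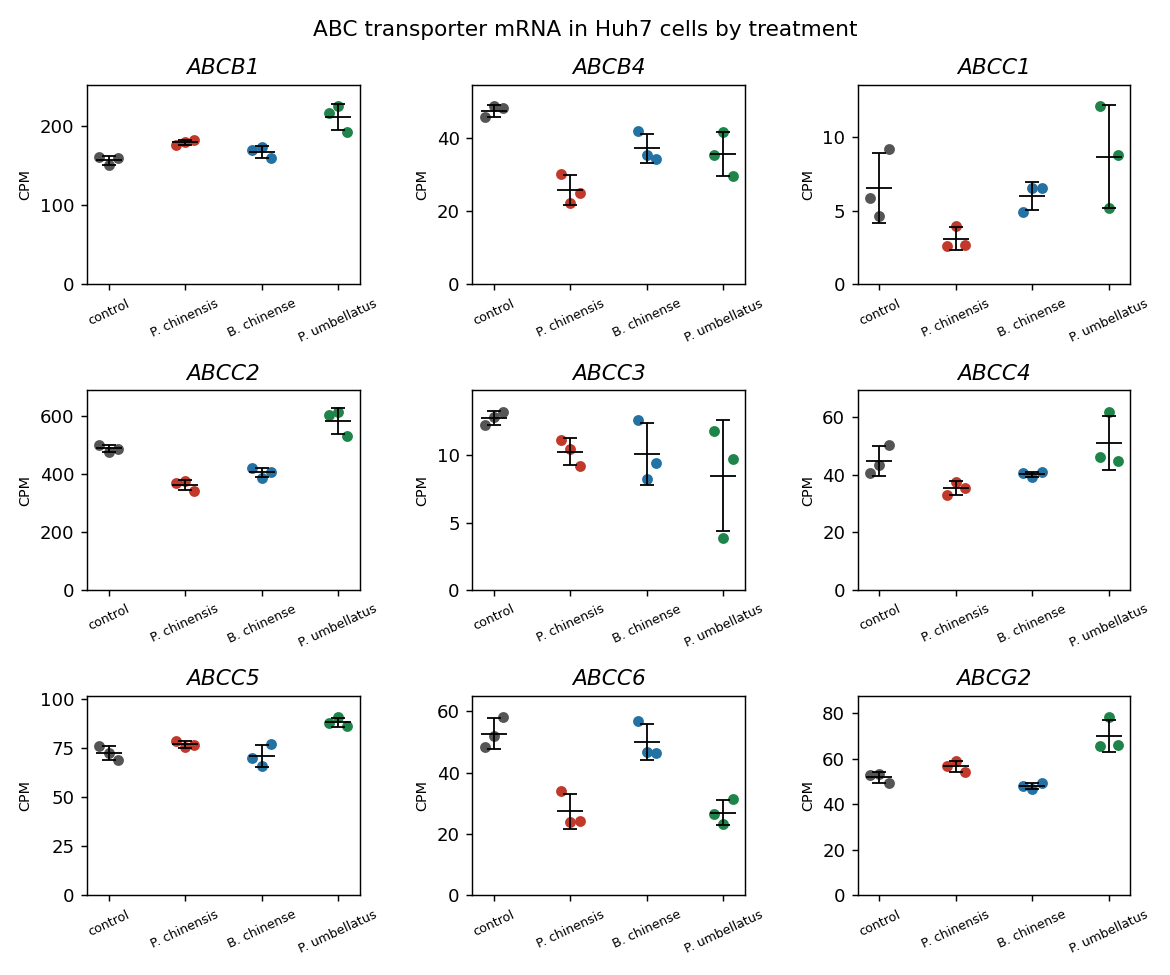
CPM of the 9 members in the 12 Huh7 libraries on linear axes that start at 0, one point per library, with bars for the mean and SD of 3 libraries. With P. chinensis ABCB4, ABCC2 and ABCC6 lie below all controls, and with P. umbellatus ABCB1, ABCC2, ABCC5 and ABCG2 lie above them.

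**Figure D5:**
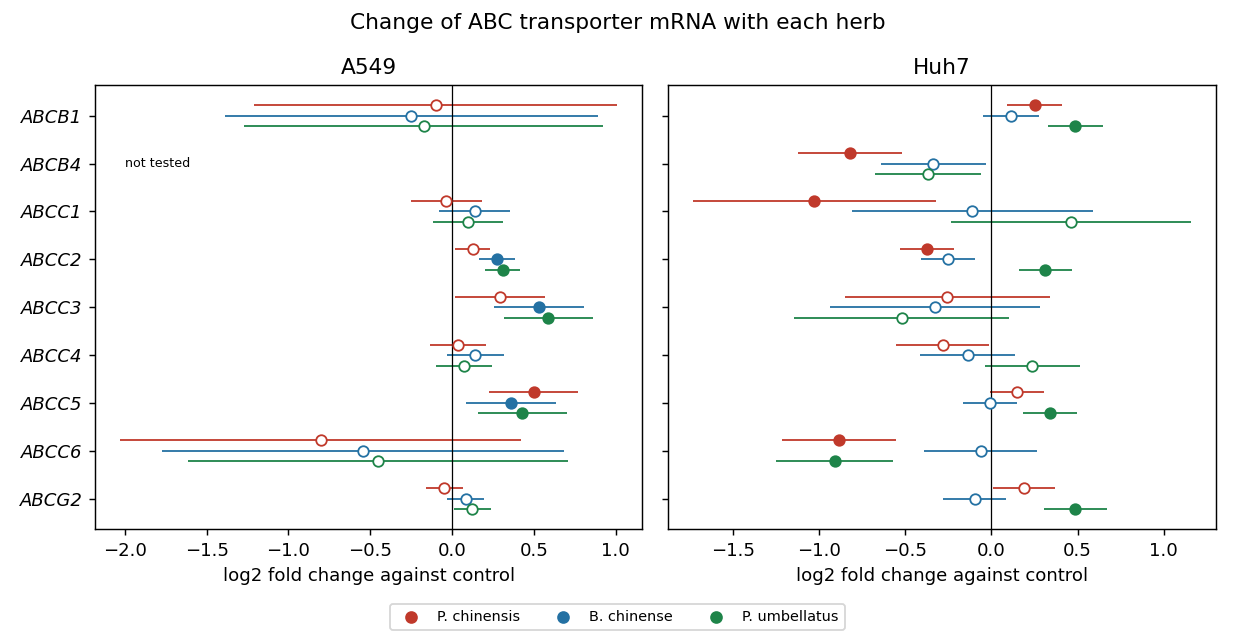
Log2 fold change against control with its 95% interval for each member and herb in A549 and Huh7, from edgeR without the GC and length correction. Filled points passed at an adjusted p below 0.05 and open points did not. In A549 the filled points are ABCC2, ABCC3 and ABCC5, all higher, while in Huh7 they lie on both sides of 0.

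Differences between herbs were tested directly in 6 pairs. In A549 none of the 8 members tested differed between any pair of herbs, where 1.45% (P. chinensis against B. chinense), 3.01% (P. chinensis against P. umbellatus) and 0.0513% (B. chinense against P. umbellatus) of genes did. DESeq2 called 2 of these 24 values and 5 were below 0.05 unadjusted in edgeR. In Huh7 the first of these pairs (7.81% of genes) differed for 1 member, ABCC6, lower with P. chinensis by a log2 difference of -0.82 ± 0.15 (adjusted p 0.0066).

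Against P. umbellatus, P. chinensis gave lower values for 6 members of Huh7 (35.4% of genes differed). With the GC and length correction ABCC1 (-1.49 ± 0.33 before, -1.54 with it, adjusted p 0.0031) and ABCC2 (-0.69 ± 0.07 before, -0.36 with it, adjusted p 0.0012) remained lower with P. chinensis. ABCB4 (-0.46 before, -0.17 with it) and ABCC4 (-0.52 before, -0.24 with it) lost the call, and ABCB1 (-0.24 before, 0.12 with it) and ABCG2 (-0.30 before, 0.12 with it) changed sign. B. chinense and P. umbellatus differed for 6 members (27.3% of genes). Of these ABCC2 (-0.56 before, -0.26 with the correction, adjusted p 0.025) and ABCC6 (0.85 before, 0.56 with it, adjusted p 0.039) kept the call, while ABCB1, ABCC4, ABCC5 and ABCG2, all lower with B. chinense, lost it. Several of these calls also turned on 1 library. The ABCB1 difference between P. chinensis and P. umbellatus was lost without any P. chinensis library or P. umbellatus replicate 1 (adjusted p 0.062 to 0.085), that of ABCB4 without P. chinensis replicate 2 or 3 or P. umbellatus replicate 1 or 2 (adjusted p 0.054 to 0.112) and that of ABCG2 without P. chinensis replicate 3 (adjusted p 0.066). The ABCC4 difference between B. chinense and P. umbellatus was lost without any 1 of 10 libraries, and without P. umbellatus replicate 2 it was -0.21 (adjusted p 0.15).

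The response to a herb differed between the lines for 6 of 24 member and herb combinations by the interaction test. ABCC2 differed with P. chinensis, with a response of A549 minus Huh7 of 0.55 ± 0.09 (adjusted p 9.6e-05), and with B. chinense, with 0.57 ± 0.09 (adjusted p 0.00015). For both herbs its value was above 0 in A549 and below 0 in Huh7, though only 1 line passed the test with each. ABCC3 differed with B. chinense (0.91 ± 0.28, adjusted p 0.037) and P. umbellatus (1.17 ± 0.29, adjusted p 0.0036), higher with the herb in A549 and with negative values in Huh7 that passed no test. Both were lost with voom (adjusted p 0.063 and 0.13), the B. chinense value was lost without any 1 of 11 libraries (0.77 to 0.94, adjusted p 0.050 to 0.12), and the P. umbellatus value was 0.83 (adjusted p 0.020) with the correction. ABCC1 differed with P. chinensis (1.06 ± 0.31, adjusted p 0.017), and without Huh7 control replicate 3 this value was 0.67 (adjusted p 0.14), and without P. chinensis replicate 1 or 3 of Huh7 it was 0.88 (adjusted p 0.082) or 0.95 (adjusted p 0.055). ABCG2 differed with P. umbellatus by -0.28 ± 0.10 (adjusted p 0.026), which the GC and length correction turned to 0.15 (adjusted p 0.18). The background was 19.6% of genes for P. chinensis, 11.6% for B. chinense and 34.4% for P. umbellatus. ABCC5, raised in A549 by P. chinensis, was not shown to respond differently in Huh7 (0.41 ± 0.15, adjusted p 0.069).

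Among the carriers that bring bile acids and drugs into cells, and genes that serve them, those called in Huh7 were mostly lower. Of 24 such genes tested there, 0 rose and 11 fell with P. chinensis, 1 rose and 11 fell with P. umbellatus (0 and 9 with the GC and length correction), and 0 rose and 1 fell with B. chinense. Their median log2 change was -0.41 with P. chinensis, -0.52 with P. umbellatus (-0.55 after the correction) and -0.23 with B. chinense, beside 0.01, 0.03 and -8.9e-05 over all genes. The share of all genes called lower was 10.5% with P. chinensis, 17.8% with P. umbellatus (1777 of 13875 genes with the correction) and 0.757% with B. chinense. SLCO4C1, an organic anion uptake carrier, fell with P. chinensis from 58.8 to 62.7 CPM in the controls to 19.4 to 21.9 CPM (-1.51 ± 0.09, adjusted p 7.1e-07). RDX (radixin), which anchors ABCC2 at the canalicular membrane, rose with P. umbellatus (0.39 ± 0.10, adjusted p 0.0098), a value of 0.11 (adjusted p 0.21) with the correction. In A549, 3 of 19 rose and 3 fell with P. chinensis, 3 and 3 with P. umbellatus, and 3 and 2 with B. chinense. Of all genes in A549, in the same order, 15.8% were called up and 17.1% down, 13.4% and 14.8%, and 13.1% and 15%. There SLCO2B1, another organic anion carrier, rose most with P. chinensis (1.97 ± 0.16, 4.36 to 6.09 CPM in the controls and 19.2 to 24.7 with the herb), and SLC29A1, a nucleoside carrier, fell most (-0.69 ± 0.09).

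Of the other ABC genes, those called in A549 were mostly higher, while of those called in Huh7 more were lower than higher. The difference between the lines was not tested. In A549, 9 of 33 rose and 2 fell with P. chinensis, 9 and 2 with P. umbellatus, and 8 and 2 with B. chinense. Of all genes there, in the same order, 15.8% were called up and 17.1% down, 13.4% and 14.8%, and 13.1% and 15%. In Huh7, 1 of 31 rose and 3 fell with P. chinensis, 3 and 5 with P. umbellatus (0 and 1 with the correction), and 0 and 0 with B. chinense. Of all genes in Huh7, in the same order, 10.5% were called up and 10.5% down, 19.3% and 17.8% (942 and 1777 of 13875 genes with the correction), and 0.519% and 0.757%. Neither rises nor falls of the other ABC genes in Huh7 were more frequent than among all genes. ABCA1, the cholesterol and phospholipid exporter, rose most in A549, from 43.6 to 47.8 CPM in the controls to 164 to 200.4 CPM with P. umbellatus (1.96 ± 0.10, adjusted p 1.7e-08). ABCD3, a peroxisomal fatty acid transporter, fell most there, with P. chinensis (-0.36 ± 0.06, adjusted p 0.00015). In Huh7 the largest rise and fall, ABCA5 (0.44 ± 0.13) and ABCA2 (-0.93 ± 0.25) with P. umbellatus, became 0.01 (adjusted p 0.97) and -0.28 (adjusted p 0.27) with the correction.

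Among the bile acid synthesis genes, 4 of 14 rose and 1 fell with P. chinensis in A549, 2 and 1 with P. umbellatus, and 0 and 1 with B. chinense. Beside them, 15.8% of all genes were called up and 17.1% down, 13.4% and 14.8%, and 13.1% and 15%. In Huh7, 3 of 17 rose and 4 fell with P. chinensis, 3 and 2 with P. umbellatus (2 and 3 with the correction), and 0 and 0 with B. chinense. The shares of all genes were 10.5% up and 10.5% down, 19.3% and 17.8% (942 and 1777 of 13875 genes with the correction), and 0.519% and 0.757%. FGFR4, the receptor through which FGF19 represses bile acid synthesis, fell with P. chinensis in A549 (-0.96 ± 0.09, adjusted p 1.4e-06) and with P. umbellatus in Huh7 (-0.99 ± 0.19, adjusted p 0.0032, and -0.24 with adjusted p 0.024 after the correction). CYP7B1, an oxysterol hydroxylase of the alternative pathway, rose with P. umbellatus in A549 (1.09 ± 0.31, adjusted p 0.017), and AMACR, a peroxisomal racemase, rose with P. chinensis in Huh7 (0.81 ± 0.13, adjusted p 0.00093).

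Conjugation and glutathione genes, whose products supply the ABCC exporters with substrates, moved both ways. In A549 5 of 31 rose and 7 fell with P. chinensis, 9 and 5 with P. umbellatus, and 8 and 4 with B. chinense. The shares of all genes were 15.8% up and 17.1% down, 13.4% and 14.8%, and 13.1% and 15%. In Huh7 9 of 37 rose and 4 fell with P. chinensis, 9 and 2 with P. umbellatus (8 and 7 with the correction), and 3 and 2 with B. chinense. Beside them, 10.5% of all genes were called up and 10.5% down, 19.3% and 17.8% (942 and 1777 of 13875 genes with the correction), and 0.519% and 0.757%. CYP3A5, a drug-oxidising enzyme, rose most in A549 (1.92 ± 0.33 with P. chinensis, adjusted p 0.00041), and SLC3A2, the heavy chain of the cystine carrier, fell most (-0.51 ± 0.05, adjusted p 3.6e-06). In Huh7 CYP1B1 rose most (3.03 ± 0.16 with P. chinensis, adjusted p 3.5e-07), and GGT1, which cleaves extracellular glutathione, fell most with P. umbellatus (-1.84 ± 0.23, adjusted p 0.00051, and -1.22 with adjusted p 0.0069 after the correction).

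Nuclear receptors and liver factors known to control these transporters were mostly lower where they were called with P. chinensis in both lines. Of 25 regulators tested in A549, 3 rose and 10 fell with P. chinensis, 3 and 5 with P. umbellatus, and 4 and 7 with B. chinense. Of all genes there, 15.8% were called up and 17.1% down, 13.4% and 14.8%, and 13.1% and 15%. Of 27 in Huh7, 3 rose and 9 fell with P. chinensis, 6 and 11 with P. umbellatus (4 and 4 with the correction), and 0 and 0 with B. chinense. Of all genes there, 10.5% were called up and 10.5% down, 19.3% and 17.8% (942 and 1777 of 13875 genes with the correction), and 0.519% and 0.757%. NR1H4 (FXR), the bile acid receptor known to activate ABCB4, was at 182 to 198 CPM in the Huh7 controls and at 94.6 to 107 CPM with P. chinensis, a fall of 0.82 ± 0.10 (adjusted p 9.7e-05). It also fell with P. umbellatus (-0.41 ± 0.10, adjusted p 0.0073, and -0.79 with adjusted p 2.1e-05 after the correction). In the same line the summed level of the 10 hepatocyte markers was 21974 to 22438 CPM in the controls, 13261 to 14028 with P. chinensis, 19772 to 20310 with B. chinense and 19665 to 24026 with P. umbellatus, and its part in the values of ABCB4, ABCC2 and ABCC6 was not tested.

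In A549 HNF4A, the nuclear receptor of hepatocyte identity, fell with all 3 herbs, from 109.8 to 123 CPM in the controls to 44.8 to 58.3 CPM (-1.35, -1.19 and -1.24). Huh7 HNF4A was at 441 to 459 CPM in the controls, did not pass with P. chinensis (0.06 ± 0.10) or B. chinense, and was lower with P. umbellatus (-0.29 ± 0.10, adjusted p 0.039, and -0.09 with adjusted p 0.31 after the correction). CEBPA, a hepatocyte differentiation factor, fell most in Huh7 with P. umbellatus (-1.23 ± 0.19, adjusted p 0.0012, and -0.35 with adjusted p 0.00038 after the correction). NR1I2 (PXR), the xenobiotic receptor known to induce ABCB1, was at 0 counts in every A549 library and at no more than 90 counts in any Huh7 library, where it passed no test, and NR1I3 (CAR) was not in the table.

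Genes known to report on the aryl hydrocarbon receptor, cell cycle arrest and NRF2 were measured in the same libraries. CYP1A1 rose with every herb in A549 (4.01, 4.40 and 4.13) and in Huh7 (1.55, 1.13 and 1.5). Its A549 controls held at most 5 counts in a library (0.192 to 0.491 CPM), against 3.63 to 11.5 CPM with the herbs. The A549 values thus rest on a control level near the floor, whereas the Huh7 controls were at 129 to 137 CPM. CYP1B1 also rose with every herb, by 1.19 to 1.89 in A549 and by 1.48 to 3.03 in Huh7. The P. umbellatus values of Huh7 were 1.55 for CYP1A1 and 2.09 for CYP1B1 with the correction. AHRR, the repressor of that receptor, was the largest rise among regulators in A549 (1.81 ± 0.19 with B. chinense), while the receptor AHR itself fell with P. chinensis in A549 (-0.48 ± 0.15, adjusted p 0.026) and rose in Huh7 with P. chinensis (0.28 ± 0.09, adjusted p 0.046) and P. umbellatus (0.77 ± 0.09, and 0.34 with adjusted p 0.0037 after the correction). CDKN1A, an inhibitor of cyclin-dependent kinases, rose in A549 with the 3 herbs (2.54, 2.42 and 2.20) and in Huh7 with P. chinensis (0.73 ± 0.17, adjusted p 0.0088). Of the NRF2 targets, TXNRD1 rose with all 3 herbs in A549 (0.20 to 0.22) and with P. chinensis (0.54) and P. umbellatus (0.60, and 0.41 with the correction) in Huh7. NQO1 rose in A549 with B. chinense (0.14) and P. umbellatus (0.19) but fell in Huh7 with P. chinensis (-0.43) and B. chinense (-0.27). GCLM fell with P. chinensis in A549 (-0.25), and rose with P. umbellatus in Huh7 (0.59, and 0.17 with the correction). NFE2L2, the NRF2 gene, passed no test in A549 and rose in Huh7 with P. chinensis (0.27 ± 0.08, adjusted p 0.039) and P. umbellatus (0.52 ± 0.08, and 0.16 with the correction).

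The genes whose pattern was most like each member were found by Pearson correlation of log2(CPM + 0.5) over the 24 libraries, with the mean of each line removed, among 11574 genes. The libraries share depth and base composition effects, so the values are a description. In A549, ABCB1, ABCB4 and ABCC6 held at most 31, 6 and 15 counts in a library. The genes nearest to these 3 members may therefore largely follow counting noise. ABCC2 was followed most closely, by UTRN (r = 0.95), ADGRG6 (0.92) and TMEM181 (0.92), and ABCC3 by PKM (0.90), FLII (0.88) and HM13 (0.88). ABCC4 was nearest to EFR3A (0.88), SELENOI (0.88) and ETNK1 (0.86), ABCG2 to TOR1AIP1, SETD7 and VPS8 (0.87 each), and ABCC5 to CPQ (0.85), ITGAV (0.84) and KCNK1 (0.83). ABCC6 was nearest to SNX5 (0.85), ZNF395 (0.82) and METTL7B (0.81), ABCB4 to LIX1L (0.82), PDE3B (0.75) and GPC3 (0.75), ABCC1 to UBR4 (0.80), SLC47A1 (0.80) and KIF13A (0.79), and ABCB1 to SEMA6A (0.77), CHIC2 (0.76) and SYCP2L (0.72). No member was among the 3 genes nearest to another member.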

How the data were processed

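RNA of A549 and Huh7 cells was sequenced from 24 libraries, 3 for each of 8 groups that were taken from the sample titles. The values analysed are estimated counts per gene, which the authors obtained with kallisto against Ensembl v108 transcripts (GRCh38.p13) from stranded, ribosomal RNA-depleted libraries and deposited as whole numbers for 14585 genes after keeping protein-coding genes with a mean above 5. GRCh38.p13, FastQC and kallisto are named in the submitters' processing notes. Positions are from GENCODE v44 (GRCh38). The members and the 5 gene lists were chosen with earlier results of these data known.

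Each line's 12 libraries were fitted with edgeR 4.0.16 (TMM scaling, quasi-likelihood test, prior count 0.125, R 4.3.3) on genes averaging 5 counts or more in the line, 13633 in A549 and 13875 in Huh7. Lines and line-by-herb interactions were fitted over the 24 libraries. P-values were adjusted by the Benjamini-Hochberg method over all genes tested and the threshold was 0.05. SE are those of the fitted log2 change, and exact intervals cover counting error only. CPM were scaled over the 24 libraries, which differs from the scaling within a line by at most 0.048 (A549) and 0.036 (Huh7) on the log2 scale. Genes named besides the members were preset regulators and reporters, the largest called rise and fall of each list in each line (averaging 50 counts or more, no overlap with control) and the 3 genes most like each member. Values of some regulators that this rule names are not reported here. The edgeR and DESeq2 fits within a line were tested on simulated counts, for P. chinensis against control and for a comparison without change. The interaction, voom, replicate block and GC-corrected fits were not tested in this way.

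Alternatives were DESeq2 1.42.0, limma 3.58.1 voom with sample weights, RLE and upper quartile scaling, 2 other filters, a fit of the compared libraries alone, a replicate block, leaving out each library, and, added after seeing the data, a GC and length correction. Replicate numbers were shared by all groups, but of 18 correlations of same-numbered libraries in each line (-0.071 to 0.057 in A549 and -0.096 to 0.077 in Huh7) none was above 0.1, so the numbers were not treated as pairs.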

Additional observations from a re-analysis of the deposited data

Results flagged for a closer look

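The response to a herb differed between the lines, by the interaction test of edgeR over all genes, for 6 of 24 combinations of member and herb. For each herb 2 of 8 members were called. Among all genes the share called was 19.6% for P. chinensis, 11.6% for B. chinense and 34.4% for P. umbellatus. Whether the members differed more often than other genes was not tested. The differences of the log2 responses, A549 minus Huh7, were 1.06 for ABCC1 and 0.55 for ABCC2 with P. chinensis, 0.57 for ABCC2 and 0.91 for ABCC3 with B. chinense, and 1.17 for ABCC3 and -0.28 for ABCG2 with P. umbellatus. The 2 differences of ABCC2 held under all 9 alternative settings (adjusted p at most 0.00035) and without any single library. That of ABCC1 held under the 9 settings (adjusted p 0.0044 to 0.025), but without Huh7 control replicate 3 it was 0.67 (adjusted p 0.14). Those of ABCC3 were lost with voom (0.84 with adjusted p 0.063 for B. chinense, 0.89 with adjusted p 0.13 for P. umbellatus), and the B. chinense value was lost in 11 of 24 fits that left out 1 library (0.77 to 0.94). The ABCG2 difference was lost under 4 settings and changed sign with the GC and length correction (0.15).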

How the results depend on the processing

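The members called in each comparison were counted again under every alternative. For A549 with P. chinensis, 1 member was called, and 2 under DESeq2, 3 with upper quartile scaling, and 2 each with the compared libraries alone, voom and the GC and length correction. For Huh7 with P. chinensis the 5 members called became 8 with the compared libraries alone and with voom. For Huh7 with B. chinense the count of 0 became 1 under DESeq2, voom and the correction and 2 with the compared libraries alone. For Huh7 with P. umbellatus the 5 became 3 with the compared libraries alone and 2 with the correction. The 13 herb-pair calls became 6 and 8 under those settings, and the 6 interaction calls became 10 with the correction. The correction also moved the calls over all genes, up and down. They were 2225 and 2409 (2148 and 2325 before) in A549 with P. chinensis. In Huh7 they were 1962 and 2275 (1450 and 1451) with P. chinensis, 250 and 430 (72 and 105) with B. chinense and 942 and 1777 (2674 and 2464) with P. umbellatus. Without the calls over all genes under each other setting, which are not given here, the member counts cannot be told apart from a general shift. Leaving out 1 library gave 1 to 3, 2 to 3 and 2 to 3 calls in A549 (P. chinensis, B. chinense, P. umbellatus), 3 to 7, 0 to 1 and 5 to 6 in Huh7, 9 to 16 herb pairs, 4 to 9 interactions and 9 between the control lines in every fit.

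The replicate numbers do not pair the libraries, and with the replicate block the counts were 1, 2 and 3 in A549, 4, 0 and 5 in Huh7, 12 herb pairs, 6 interactions and 9 between lines.

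Signs changed for values that passed no test or for Huh7 with P. umbellatus. With the correction ABCC2 was -0.029 and ABCC4 -0.063 against control in Huh7 with P. umbellatus, ABCB1 and ABCG2 were each 0.12 for P. chinensis against P. umbellatus, the ABCG2 interaction was 0.15, and ABCC1 was -0.024 in A549 with P. umbellatus. With upper quartile scaling ABCC1 (0.033) and ABCG2 (0.020) changed sign in A549 with P. chinensis and ABCC5 (0.015) in Huh7 with B. chinense, where voom gave 0.0037. ABCB1 in A549 became 0.37, 0.065 and 0.27 with the 3 herbs under voom and 0.033 with P. chinensis under the replicate block. Without 1 library, signs changed in A549 for ABCB1 (-0.46 to 0.81, -0.61 to 0.66 and -0.54 to 0.73 with the 3 herbs), ABCC1 with P. chinensis (-0.14 to 0.063) and ABCC4 with P. chinensis (-0.055 to 0.13) and P. umbellatus (-0.022 to 0.16), and in Huh7 with B. chinense for ABCC1 (-0.31 to 0.22), ABCC5 (-0.069 to 0.039) and ABCC6 (-0.16 to 0.014). The cause was not tested. Of the other settings' values for single members, 633 kept direction and side of the threshold, 24 gained the call, 37 lost it and 14 changed sign. Of those without 1 library the numbers were 1044, 14, 55 and 15. ABCB1, ABCB4 and ABCC6 held at most 31, 6 and 15 counts in any A549 library, which limits their precision.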
